A study of Mus musculus with 10 samples.

Results

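The genes described here are 31 markers of T cells and natural killer (NK) cells, of 55487 genes in the tables, measured in the skin of mice with a Hamp1 knock-in and of wild type mice. They were found by their gene symbols, and the 31 symbols each matched a single Ensembl gene. They encode the chains of the alpha-beta and gamma-delta T cell receptors, the CD3 complex, the coreceptors CD4 and CD8, adhesion and costimulatory molecules, kinases and adaptors, cytokine receptors, transcription factors and cytotoxic proteins. RNA was sequenced from the skin of 5 mice of the genotype written Hamp1-KI ker in the labels (KI) and of 5 wild type mice (WT), 1 library per mouse. Hamp encodes hepcidin, a peptide hormone that lowers iron export from cells. The labels do not spell out "ker", and they give no age, sex, strain, driving promoter or founder line, so what limits these mice as a model beyond the knock-in is not given in the sources used here. KI replicates 1 and 2 and WT replicates 1 to 3 carry the title prefix EAS37, and KI replicates 3 to 5 and WT replicates 4 and 5 carry EAS42, a prefix whose meaning the labels do not give. Values per library are listed in the order of replicates 1 to 5, a numbering that only names the libraries.

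T cells recognise antigen through a receptor made of an alpha and a beta chain or of a gamma and a delta chain. Each chain joins a variable part to a constant part, and the CD3 proteins carry the signal into the cell, where the kinases Lck and Zap70 pass it on. Mouse epidermis is known for resident gamma-delta T cells with dendrites, while alpha-beta T cells, among them CD4+ regulatory T cells, are found mainly in the dermis and around hair follicles. NK cells lack these receptors and kill with granules that hold perforin and granzymes. Several of the 31 genes are not exclusive to lymphocytes: Gata3 is also a transcription factor of hair follicle and epidermal cells, and Thy1 is also made by fibroblasts.

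Libraries held 18.96 to 26.43 M expected counts. Hamp stood at 85.6 to 169 counts scaled to library size (CPM) in KI libraries and at 1.86 to 3.33 CPM in WT libraries, and its paralog Hamp2 at 0 to 12.5 CPM in KI libraries and 25.9 to 83 CPM in WT libraries. Calls of higher or lower genes in the following lists are those of the edgeR test given below, by which 15.6% of all tested genes were higher and 15.3% lower. Keratinocyte genes were abundant and moved in different directions. Krt1, a keratin of differentiating epidermis, averaged 2130 ± 573 CPM in KI skin and 843 ± 316 CPM in WT skin, and Sfn, the epithelial protein stratifin, 1450 ± 540 CPM in KI skin and 544 ± 134 CPM in WT skin (SD, n = 5 each). Krt15, a basal layer keratin, averaged 1230 ± 725 CPM in KI skin and 4310 ± 787 CPM in WT skin (SD, n = 5 each), and 6 of the 10 keratinocyte genes did not pass. The 20 skeletal muscle markers summed to 3720 to 37000 CPM in KI libraries and to 34000 to 59200 CPM in WT libraries, which overlap. Of these markers 0 were higher and 3 lower, a share of lower genes close to that over all tested genes, and none was at 0 in all libraries. The 16 markers of all leukocytes summed to 329 to 430 CPM in KI libraries and to 180 to 279 CPM in WT libraries, with 8 higher, 0 lower and none at 0 in all libraries. Ptprc, the pan-leukocyte antigen CD45, averaged 25.2 ± 5.18 CPM in KI skin and 11.3 ± 3.09 CPM in WT skin (SD, n = 5 each). The leukocyte sums did not overlap between the genotypes, and so differed together with the T cell genes. In bulk skin, fewer or more cells of a type and less or more RNA per cell cannot be told apart.

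The beta chain has a pair of constant genes, Trbc1 and Trbc2, and their sequences are shown because the split of reads between them rests on few bases. Trbc1 lies on chromosome 6 of GRCm38 at chr6:41538218-41539881 and Trbc2 at chr6:41546730-41548352, both on the plus strand and 6849 bases apart. Their 518 coding bases differ at 23 positions (95.6% identical). Exon 1 with 375 coding bases differs at 1 position, and exon 3 with 107 coding bases differs at 15. Exon 3 of both genes, in GENCODE M21 transcripts at chr6:41539229-41539335 and chr6:41547772-41547878, is given with the bases that differ in capitals.
Trbc1: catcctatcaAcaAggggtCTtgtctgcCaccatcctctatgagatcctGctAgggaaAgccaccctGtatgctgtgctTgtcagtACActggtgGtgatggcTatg
Trbc2: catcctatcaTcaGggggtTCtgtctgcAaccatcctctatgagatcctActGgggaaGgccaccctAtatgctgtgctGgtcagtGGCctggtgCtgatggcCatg
Reads from exon 1 alone can hardly be assigned to either gene, so the levels of Trbc1 and Trbc2 taken singly are uncertain. The first exons of the gamma constant genes Tcrg-C1 and Tcrg-C2, of 330 coding bases, differ at 9 positions. Expected counts of Trbc1 and Trbc2 were fractional in all 10 libraries, whereas those of Tcrg-C1 were whole in 6 of 10.

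Promoter sequences from RefSeq (GRCm38.p6) were matched for 17 of the 31 genes, with 21 windows of 250 bases before a start. Of these, 4 are shown, 3 from genes that rose in KI skin (Cd3d, Cd3g and Lck) and that of the cytotoxic protease gene Gzmb. Capitals mark TGTGGT, the core bound by RUNX factors, and AGGAAG, a core bound by ETS factors, on either strand, and a base in either core is capital. The windows are chr9:44981536-44981785 (Cd3d, plus strand), chr9:44980432-44980681 (Cd3g, minus strand), chr4:129573642-129573891 (Lck, minus strand) and chr14:56262335-56262584 (Gzmb, minus strand).
Cd3d: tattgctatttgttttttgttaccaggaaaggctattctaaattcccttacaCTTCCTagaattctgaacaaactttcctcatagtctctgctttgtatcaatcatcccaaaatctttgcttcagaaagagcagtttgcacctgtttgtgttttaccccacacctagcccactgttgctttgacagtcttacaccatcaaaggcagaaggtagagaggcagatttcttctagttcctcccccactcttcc
Cd3g: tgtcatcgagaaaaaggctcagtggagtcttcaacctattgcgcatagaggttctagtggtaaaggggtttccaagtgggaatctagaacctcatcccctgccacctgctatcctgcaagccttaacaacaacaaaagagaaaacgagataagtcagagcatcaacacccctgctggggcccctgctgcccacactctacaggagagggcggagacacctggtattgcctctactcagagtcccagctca
Lck: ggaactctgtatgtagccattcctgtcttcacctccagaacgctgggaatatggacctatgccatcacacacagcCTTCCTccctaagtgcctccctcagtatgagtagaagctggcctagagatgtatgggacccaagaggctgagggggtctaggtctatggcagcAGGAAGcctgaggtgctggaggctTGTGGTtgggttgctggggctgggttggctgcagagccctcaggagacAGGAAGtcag
Gzmb: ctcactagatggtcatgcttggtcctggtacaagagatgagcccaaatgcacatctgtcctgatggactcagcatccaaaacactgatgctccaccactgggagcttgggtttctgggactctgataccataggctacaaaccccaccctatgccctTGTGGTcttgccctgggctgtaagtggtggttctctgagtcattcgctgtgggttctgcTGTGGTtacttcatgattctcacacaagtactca
Cd3g and Cd3d are transcribed away from each other, and their starts lie 1355 bases apart. TGTGGT was present in 6 of the 21 windows (28.6%) and in 14% of all 32851 promoter windows of that length. Its windows belonged to Gzma, Gzmb, Nkg7, Xcl1, Lck and Zap70, which include the 4 genes of cytotoxic and NK cells. The Lck window shown holds it, whereas the other Lck window, chr4:129558373-129558622, does not. The Zap70 windows chr1:36761548-36761797 and chr1:36778734-36778983 also lack it. AGGAAG was present in 61.9% of the 21 windows and in 29.5% of all windows. Other searched cores were less frequent, with AGATAA of GATA factors in 9.52% of the 21 windows and 9.99% of all windows. The E protein core CAGCTG was present in 4.76% of the 21 windows and 13.0% of all windows, and the TCF core CTTTGA in 9.52% of the 21 windows and 13.8% of all windows. These matches were searched on both strands and the shares were not tested.

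In the comparison of KI with WT skin, 26 of the 31 genes passed the filter on low counts, and 18 of these 26 were higher in KI skin (edgeR quasi-likelihood test, Benjamini-Hochberg adjusted p under 0.05 over all genes tested), against 15.6% of the 17321 genes tested. A single gene, Gata3, was lower, against 15.3% of all tested genes. In either direction 30.9% of all tested genes passed. The median log2 fold change of the 26 genes was 1.05, against -0.01 over all tested genes. Every KI library was above every WT library for 13 of the 26 genes, against 10.7% of all tested genes. These 13 were Trbc1, Trbc2, Tcrg-C1, Cd3d, Cd3g, Cd4, Cd5, Cd27, Icos, Lck, Skap1, Il2rb and Nkg7. The filter asked for 0.454 CPM in at least 5 libraries. Cd27 reached this level in 5 KI libraries and 0 WT libraries. It therefore passed the filter through KI libraries alone, and counts among the 18 and the 13 on that basis. Trac, Cd4, Cd28, Skap1, Foxp3 and Xcl1 reached the level in 2 to 4 WT libraries, so their passing depended on KI libraries as well. The 5 genes below the filter were Cd8a, Cd8b1, Cd6, Gzma and Gzmb.

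**Figure D1:**
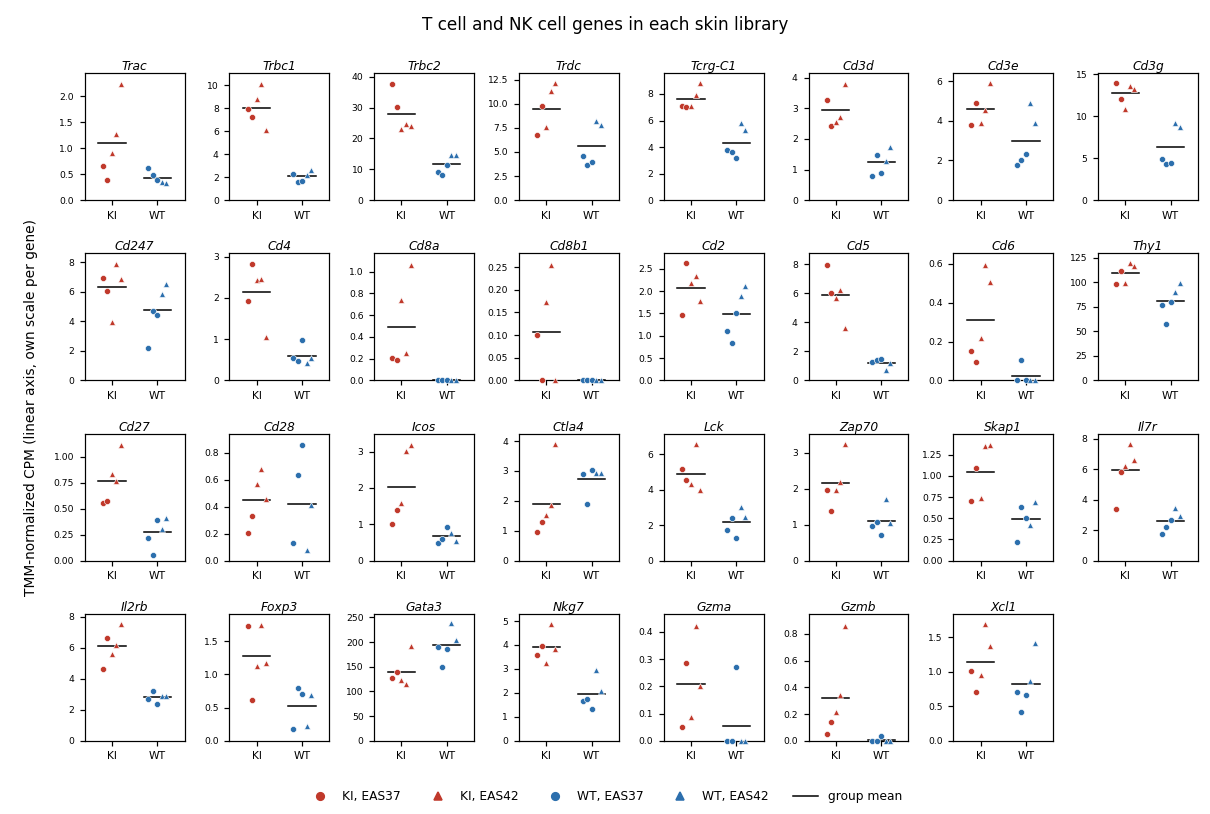
Normalised level of each of the 31 genes in every library, in CPM on a linear axis with its own scale per gene, KI left and WT right. Each point is 1 library (circles EAS37, triangles EAS42) and the line is the group mean. For Trbc1, Cd5 and Il2rb all KI points lie above all WT points, whereas Gata3 and Ctla4 have lower KI means.

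The constant genes of the alpha and beta chains were higher in KI skin, 3 of 3, against 15.6% of all tested genes. Of these, Trac lost its call under several alternatives. Trbc1 stood at 7.92, 7.23, 8.81, 10.1 and 6.08 CPM in KI libraries and at 2.25, 1.59, 1.71, 2.20 and 2.61 CPM in WT libraries. The groups did not overlap, and the gap between them was wider than the whole WT range. The log2 fold change was 1.95 ± 0.19 (SE; adjusted p = 0.000187, edgeR, n = 5 each). Trbc2 stood at 37.7, 30.3, 23.2, 24.8 and 24.2 CPM in KI libraries and at 9.09, 8.15, 11.4, 14.5 and 14.8 CPM in WT libraries. The groups did not overlap, the KI libraries with EAS37 were the highest and the WT libraries with EAS42 were the highest of theirs. Its log2 fold change was 1.27 ± 0.20 (SE; adjusted p = 0.00172, edgeR). Because of the near-identical exon, the sum of both genes is the firmer value. Trbc1 and Trbc2 together reached 97.1, 89.3, 79.0, 87.9 and 76.8 length-corrected units (TPM) in KI libraries and 30.2, 24.7, 34.4, 42.3 and 44.1 TPM in WT libraries, without overlap.

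Trac, the constant gene of the alpha chain, was far less abundant per length. It stood at 0.656, 0.381, 0.916, 1.27 and 2.23 CPM in KI libraries and at 0.618, 0.476, 0.389, 0.341 and 0.321 CPM in WT libraries. KI replicate 2 lay within the WT range and KI replicate 1 just above it, whereas KI replicates 3 to 5 were higher. Over all libraries the log2 fold change was 1.34 ± 0.45 (SE; adjusted p = 0.0436, edgeR). This rests on 116 counts in KI and 49 counts in WT libraries, and the call held in 2 of the 10 fits that left out a library. It was lost with the title prefix as a block, at 1.12 (adjusted p = 0.0885, edgeR), and with limma-voom (adjusted p = 0.0871). In TPM, which corrects for length, Trac averaged 1.87 ± 1.31 in KI skin and 0.806 ± 0.240 in WT skin (SD, n = 5 each). The summed Trbc1 and Trbc2 TPM was 19.5 to 142 times the Trac TPM in KI libraries and 26.3 to 78.7 times in WT libraries. Beta constant levels are therefore not a measure of alpha chain levels here, and which cells the beta constant transcripts came from was not tested.

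Of the gamma-delta receptor genes, 1 of 2 passed as higher, against 15.6% of all tested genes. Tcrg-C1, a gamma constant gene, stood at 7.12, 7.04, 7.06, 7.91 and 8.82 CPM in KI libraries and at 3.80, 3.65, 3.15, 5.80 and 5.27 CPM in WT libraries. KI libraries were all above WT libraries, and WT libraries with EAS42 were higher than those with EAS37. Tcrg-C1 had a log2 fold change of 0.81 ± 0.18 (SE; adjusted p = 0.00891, edgeR). Trdc, the delta constant gene, stood at 6.76, 9.71, 7.59, 11.3 and 12.1 CPM in KI libraries and at 4.55, 3.65, 3.93, 8.19 and 7.80 CPM in WT libraries. The groups overlapped, since KI replicates 1 and 3 lay below the highest WT library. Trdc had a log2 fold change of 0.75 ± 0.27 and missed the threshold (SE; adjusted p = 0.0527, edgeR). It passed with the title prefix as a block, at 0.688 (adjusted p = 0.017, edgeR), and with DESeq2 (adjusted p = 0.0223) and limma-voom (adjusted p = 0.04). Trdc shares exon positions with Trdv5 and Gm43434 on the other strand, and the strand setting of the counting is not given, so its value carries that uncertainty. In TPM the order in KI skin was Trbc2 with 67.8 ± 9.23, Trbc1 with 18.2 ± 4.01, Tcrg-C1 with 13.0 ± 2.03, Trdc with 3.37 ± 0.986 and Trac with 1.87 ± 1.31 (SD, n = 5). In WT skin Trbc2 had 30.1 ± 7.50 TPM, Tcrg-C1 7.81 ± 1.93, Trbc1 5.01 ± 0.940, Trdc 2.08 ± 0.774 and Trac 0.806 ± 0.240 (SD, n = 5). Trbc1 and Tcrg-C1 in KI skin, and Trdc and Trac in KI skin, overlapped over libraries, as did Tcrg-C1 and Trbc1 in WT skin.

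**Figure D2:**
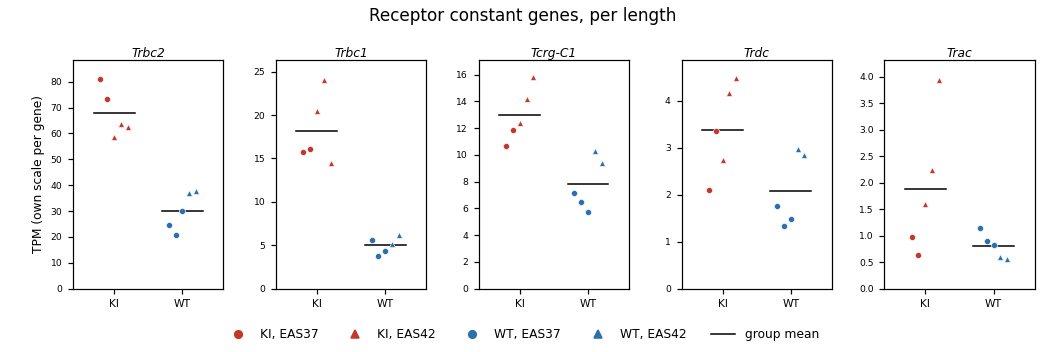
Receptor constant genes per library in TPM, a length-corrected level, each on its own linear axis, KI left and WT right. Circles are libraries with EAS37, triangles libraries with EAS42, and lines are group means. Trbc2 and Trbc1 separate fully between the genotypes, and Trac does not.

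Ratios between receptor genes were taken per library as log2 of TPM + 0.1 and compared by an exact two-sided permutation test over all assignments of the 10 libraries (smallest possible p 0.00794), adjusted over 8 ratios. The gamma to beta ratio, Tcrg-C1 over the sum of Trbc1 and Trbc2, was -3.17, -2.90, -2.66, -2.62 and -2.27 in KI libraries and -2.07, -1.91, -2.56, -2.03 and -2.22 in WT libraries. It was lower in KI libraries on average, with KI replicate 5 inside the WT range, by -0.57 (exact permutation p = 0.0159, adjusted p = 0.0952). The Trbc1 over Trbc2 ratio was -2.35, -2.18, -1.51, -1.40 and -2.10 in KI libraries and -2.13, -2.43, -2.75, -2.82 and -2.60 in WT libraries. KI replicates 1 and 2 lay within the WT range and the other KI libraries above it. The ratio differed by 0.64 (exact permutation p = 0.0238, adjusted p = 0.0952), a difference of 0.17 with EAS37 and of 1.04 with EAS42. The delta to alpha ratio, Trdc over Trac, averaged 1.01 ± 0.76 in KI libraries and 1.23 ± 0.84 in WT libraries (SD, n = 5 each; exact permutation p = 0.738). It ran in opposite directions with each prefix, at 1.01 with EAS37 and at -1.55 with EAS42. None of the 8 ratios passed after adjustment with 0.1 TPM added, and 4 passed with 0.01 TPM, among them gamma to beta (-0.565, exact permutation adjusted p = 0.0423) and Trbc1 to Trbc2 (0.655, adjusted p = 0.0476).

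Few counts fell on variable segment genes. The 35 beta variable genes held 24 counts in KI and 20 counts in WT libraries, beside 3849 counts in KI and 1597 counts in WT libraries on the beta constant genes. The 7 gamma variable genes held 105 counts in KI and 44 counts in WT libraries, and 61 of the KI counts and 28 of the WT counts were on Tcrg-V5. Tcrg-V5 is a variable gene of the receptor of epidermal gamma-delta T cells. Its counts were 11, 18, 8, 23 and 1 in KI libraries and 8, 10, 4, 1 and 5 in WT libraries, which overlap. Trdv4, a delta variable gene, had 19, 18, 14, 29 and 15 counts in KI libraries and 7, 4, 12, 16 and 15 counts in WT libraries. Trdv4 had a log2 fold change of 0.93 ± 0.35 (SE; adjusted p = 0.0623, edgeR). Joining and diversity segment genes of all receptor loci had 0 counts in every library.

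CD3 genes rose in 2 of 4 cases, against 15.6% of all tested genes. Cd3g, the gamma subunit, stood at 13.9, 12.0, 10.8, 13.6 and 13.2 CPM in KI libraries and at 4.94, 4.34, 4.44, 9.21 and 8.71 CPM in WT libraries. All KI libraries were higher, and WT libraries fell into a low set with EAS37 and a higher one with EAS42. Cd3g had a log2 fold change of 1.0 ± 0.23 (SE; adjusted p = 0.00939, edgeR). Cd3d, the delta subunit, stood at 3.28, 2.43, 2.57, 2.71 and 3.80 CPM in KI libraries and at 0.794, 1.48, 0.895, 1.29 and 1.74 CPM in WT libraries, again without overlap. Cd3d had a log2 fold change of 1.25 ± 0.25 (SE; adjusted p = 0.00541, edgeR), and of 0.685 (adjusted p = 0.302, edgeR) with offsets for the effective gene length of each library. Cd3e, the epsilon subunit, stood at 3.78 to 5.88 CPM in KI libraries and 1.77 to 4.89 CPM in WT libraries. The groups overlapped, with a log2 fold change of 0.62 ± 0.29 (SE; adjusted p = 0.121, edgeR). Cd247, the zeta chain with most of the signalling motifs, stood at 3.97 to 7.91 CPM in KI libraries and 2.21 to 6.51 CPM in WT libraries. Its log2 fold change was 0.42 ± 0.28 (SE; adjusted p = 0.263, edgeR). Exons of Cd3e overlap Gm48719 and those of Cd247 overlap Gm16565 and Pou2f1, so reads of these could be shared. Cd3g, Cd3d and Cd3e lie next to each other on chromosome 9, from 44969572 to 45009627.

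Of the coreceptor genes, Cd4 was higher in KI skin and both CD8 genes were at 0 counts in every WT library. Cd4, the coreceptor of helper and regulatory T cells, stood at 1.92, 2.81, 2.44, 2.45 and 1.06 CPM in KI libraries and at 0.530, 0.476, 0.973, 0.417 and 0.550 CPM in WT libraries. The lowest KI library, replicate 5, was close to the highest WT library, replicate 3. Cd4 had a log2 fold change of 1.84 ± 0.33 (SE; adjusted p = 0.00312, edgeR). Cd8a, the alpha chain of the coreceptor of cytotoxic T cells, had 4, 4, 17, 6 and 21 counts in KI libraries and 0 in each WT library. Its sum of 52 counts in KI libraries was at least 18.7-fold higher than the floor of 3 counts over the WT group. Cd8b1, the beta chain, had 2, 0, 4, 6 and 0 counts in KI libraries and 0 in each WT library. That sum of 12 counts in KI libraries was at least 4.31-fold higher than the same floor. With no filter on low counts Cd8a passed (adjusted p = 0.00317, edgeR) and Cd8b1 did not (adjusted p = 0.0779, edgeR). Of the 2 KI libraries without Cd8b1, replicate 5 had the most Cd8a counts of all libraries. The log2 ratio of Cd8a to Cd4 depended on the constant added to zeros. It differed by 0.22 (exact permutation p = 0.762) with 0.1 TPM and changed sign with 1 TPM.

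Adhesion and surface genes rose in 2 of 3 tested cases, against 15.6% of all tested genes. Cd5, a scavenger receptor family protein that dampens receptor signalling, stood at 7.97, 6.04, 5.71, 6.22 and 3.60 CPM in KI libraries and at 1.24, 1.38, 1.44, 0.720 and 1.19 CPM in WT libraries. The lowest KI library was above every WT library by more than the whole WT range. Cd5 had a log2 fold change of 2.31 ± 0.25 (SE; adjusted p = 0.000346, edgeR), the largest of the 26. Cd6, a neighbouring gene of the same family on chromosome 19, had 3, 2, 5, 14 and 10 counts in KI libraries and 0, 2, 0, 0 and 0 counts in WT libraries. The KI sum was 18.3 times the WT sum relative to library size (95% exact binomial interval 4.70 to 157, counting error only), and with no filter its edgeR adjusted p was 0.0226. Thy1, the glycoprotein CD90, stood at 97.7, 111, 99.6, 120 and 116 CPM in KI libraries and at 76.5, 57.8, 79.7, 90.0 and 99.5 CPM in WT libraries. KI replicate 1 lay just below the highest WT library. Thy1 had a log2 fold change of 0.43 ± 0.13 (SE; adjusted p = 0.0288, edgeR), the smallest rise of the 18, and held its call in 6 of 10 fits without a library. Cd2, an adhesion receptor of T and NK cells, stood at 1.46 to 2.62 CPM in KI libraries and 0.847 to 2.11 CPM in WT libraries. The groups overlapped, with a log2 fold change of 0.47 ± 0.28 (SE; adjusted p = 0.22, edgeR).

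**Figure D3:**
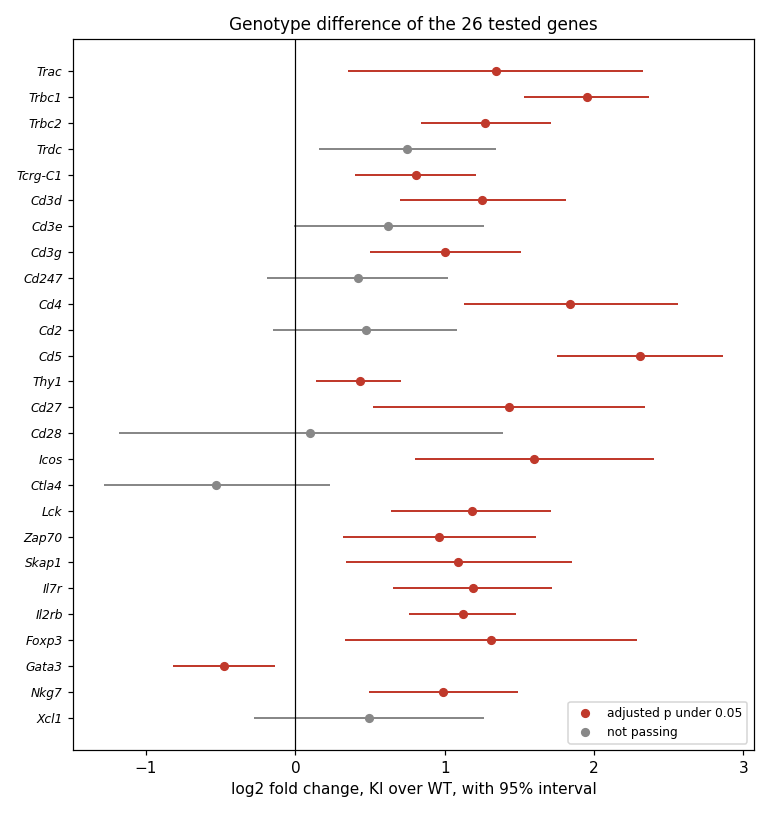
Log2 fold change of KI over WT for the 26 tested genes with its 95% interval, from the edgeR fit of all 10 libraries. Genes past the adjusted threshold are red and others grey. Cd5 and Trbc1 are farthest to the right at 2.31 and 1.95, and Gata3 is the passing gene on the left at -0.48.

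Costimulatory genes split. The related genes Cd28, Ctla4 and Icos lie in a row on chromosome 1, from 60716800 to 61000320. Icos, an inducible costimulator, stood at 1.01, 1.38, 1.57, 3.01 and 3.19 CPM in KI libraries and at 0.485, 0.582, 0.934, 0.758 and 0.550 CPM in WT libraries. All KI libraries were above all WT libraries, and KI replicates 4 and 5 stood apart at the top. Icos had a log2 fold change of 1.6 ± 0.36 (SE; adjusted p = 0.00902, edgeR). Ctla4, an inhibitory receptor of activated and regulatory T cells, stood at 0.959, 1.28, 1.53, 1.86 and 3.90 CPM in KI libraries and at 2.91, 1.91, 3.03, 2.92 and 2.93 CPM in WT libraries. KI replicate 5 was the highest of all 10 libraries and the other 4 KI libraries were the lowest. Ctla4 had a log2 fold change of -0.53 ± 0.34 over all libraries (SE; adjusted p = 0.26, edgeR). Without KI replicate 5 the value was -0.94 (adjusted p = 0.0157, edgeR). Cd28, the main costimulatory receptor, stood at 0.202, 0.333, 0.567, 0.677 and 0.456 CPM in KI libraries and at 0.132, 0.635, 0.856, 0.0758 and 0.413 CPM in WT libraries. The groups overlapped, with 49 counts in KI and 48 counts in WT libraries and a log2 fold change of 0.10 ± 0.58 (SE; adjusted p = 0.909, edgeR, 95% interval -1.18 to 1.39). Cd27, a costimulatory receptor of the TNF receptor family, stood at 0.555 to 1.11 CPM in KI libraries and 0.0529 to 0.413 CPM in WT libraries. The groups did not overlap, with a log2 fold change of 1.43 ± 0.41 (SE; adjusted p = 0.0246, edgeR). No WT library reached the filter level of 0.454 CPM, so Cd27 was tested through KI libraries alone. The call was lost without WT replicate 1 (adjusted p = 0.0578, edgeR).

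Signalling genes were higher in 3 of 3 cases, against 15.6% of all tested genes. Lck, the kinase that phosphorylates CD3 chains, stood at 5.15, 4.52, 4.32, 6.56 and 4.0 CPM in KI libraries and at 1.72, 2.38, 1.28, 3.0 and 2.48 CPM in WT libraries, without overlap. Lck had a log2 fold change of 1.18 ± 0.24 (SE; adjusted p = 0.00596, edgeR). Zap70, the kinase that binds phosphorylated CD3, stood at 1.38 to 3.24 CPM in KI libraries and 0.700 to 1.71 CPM in WT libraries. The groups overlapped through KI replicate 2, with a log2 fold change of 0.96 ± 0.29 (SE; adjusted p = 0.03, edgeR). Skap1, an adaptor that links the receptor to integrins, stood at 0.707 to 1.37 CPM in KI libraries and 0.221 to 0.688 CPM in WT libraries. They did not overlap, with a log2 fold change of 1.09 ± 0.34 (SE; adjusted p = 0.0337, edgeR). The calls of Zap70 and Skap1 held in 3 and 4 of the 10 fits without a library. Skap1 exons overlap 2010300F17Rik on the other strand.

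Both cytokine receptor genes were higher, against 15.6% of all tested genes. Il2rb, the beta chain of the receptors for interleukins 2 and 15, stood at 4.64, 6.66, 5.58, 6.18 and 7.55 CPM in KI libraries and at 2.69, 3.23, 2.37, 2.88 and 2.89 CPM in WT libraries. The groups were far apart for their spread, and Il2rb had a log2 fold change of 1.12 ± 0.16 (SE; adjusted p = 0.0013, edgeR). Il7r, the interleukin 7 receptor of naive, memory and innate lymphocytes, stood at 3.38, 5.85, 6.23, 7.66 and 6.64 CPM in KI libraries and at 1.77, 2.22, 2.65, 3.49 and 2.93 CPM in WT libraries. KI replicate 1 lay just under the highest WT library. Il7r had a log2 fold change of 1.19 ± 0.25 (SE; adjusted p = 0.00603, edgeR).

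The transcription factor genes went opposite ways. Foxp3, the factor that defines regulatory T cells, stood at 1.72, 0.619, 1.13, 1.74 and 1.17 CPM in KI libraries and at 0.177, 0.794, 0.700, 0.227 and 0.688 CPM in WT libraries. KI replicate 2 lay within the WT range. Foxp3 had a log2 fold change of 1.31 ± 0.45 (SE; adjusted p = 0.0453, edgeR), a call that held in 2 of 10 fits without a library, and its exons overlap Flicr and 3 genes on the other strand. Foxp3 relative to Cd4 averaged -0.87 ± 0.76 in KI libraries and -0.47 ± 0.65 in WT libraries on the log2 TPM scale (SD, n = 5 each; exact permutation p = 0.413). Gata3, a factor of T cell development and type 2 lymphocytes, stood at 127, 139, 123, 116 and 192 CPM in KI libraries and at 190, 150, 187, 239 and 205 CPM in WT libraries. KI replicate 5 was inside the WT range and the other 4 KI libraries lay below all WT libraries. Gata3 had a log2 fold change of -0.48 ± 0.15 (SE; adjusted p = 0.0361, edgeR), a call that held in 2 of 10 fits without a library. In TPM Gata3 averaged 59.7 ± 15.3 in KI skin and 87.9 ± 13.5 in WT skin (SD, n = 5 each), while Foxp3 averaged 0.478 ± 0.171 in KI skin and 0.204 ± 0.114 in WT skin (SD, n = 5 each). Gata3 exons overlap 9230102O04Rik and Gm13256.

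Of the cytotoxic and NK cell genes, 1 of 2 tested passed as higher, against 15.6% of all tested genes. Nkg7, a granule membrane protein, stood at 3.58, 3.95, 3.23, 4.87 and 3.85 CPM in KI libraries and at 1.68, 1.75, 1.32, 2.96 and 2.06 CPM in WT libraries, without overlap. Nkg7 had a log2 fold change of 0.99 ± 0.23 (SE; adjusted p = 0.00941, edgeR). In TPM the groups overlapped, at 6.78 to 11.8 in KI libraries and 3.45 to 7.82 in WT libraries. The call of Nkg7 was lost with offsets for the effective gene length of each library. Xcl1, a chemokine that attracts cross-presenting dendritic cells, stood at 0.714 to 1.69 CPM in KI libraries and 0.423 to 1.42 CPM in WT libraries. The groups overlapped, with a log2 fold change of 0.49 ± 0.35 (SE; adjusted p = 0.307, edgeR), and Gm20743 overlaps its exons. Gzmb, a granzyme that triggers caspases, had 1, 3, 5, 8 and 17 counts in KI libraries and 0, 0, 1, 0 and 0 counts in WT libraries. Replicate 5 held the most of them. The KI sum was 36.6 times the WT sum relative to library size (95% exact binomial interval 6.15 to 1490, counting error only), and with no filter its edgeR adjusted p was 0.01. Gzma, a granzyme with trypsin-like activity, had 1, 6, 2, 10 and 4 counts in KI libraries and 0, 0, 7, 0 and 0 counts in WT libraries. The KI sum was 3.54 times the WT sum (95% exact binomial interval 1.47 to 9.77, counting error only), and with no filter its edgeR adjusted p was 0.307. Gzmb relative to Cd3e differed by 1.18 on the log2 scale (exact permutation p = 0.0714), a value that depended on the constant added to zeros.

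KI libraries did not rank alike across the 31 genes. KI replicate 5 was the highest KI library for 14 genes and the lowest for 5, among them Cd4, Cd5, Trbc1 and Lck. It was the highest for Trac, Trdc, Tcrg-C1, Cd3d, Cd3e, Cd8a, Icos, Ctla4, Il2rb, Gata3 and Gzmb. KI replicate 4 was the highest for 12 genes and the lowest for 1. KI replicate 1 was the lowest for 13 genes.

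Effects of genotype were also taken within each title prefix, in a model with an interaction. Within EAS37, 14 of the 26 genes were higher in KI skin, against 17.4% of all tested genes, and within EAS42, 8 of 26 were higher, against 7.94%. Trbc1, Trbc2, Cd4, Cd5, Il7r and Il2rb passed within both. The difference of the effects itself passed for 1 of the 26 genes, against 0.866% of all tested genes. That gene was Trbc2, with a log2 fold change of 1.83 ± 0.15 with EAS37 and of 0.72 ± 0.16 with EAS42 (SE), a difference of -1.11 ± 0.22 (SE; adjusted p = 0.0488, edgeR). Cd3g had 1.5 ± 0.16 with EAS37 and 0.48 ± 0.16 with EAS42 (SE), a difference of -1.02 (adjusted p = 0.0675, edgeR). Trac had 0.07 ± 0.52 with EAS37 and 2.12 ± 0.52 with EAS42 (SE), a difference of 2.06 (adjusted p = 0.189, edgeR). Cd5 had 2.37 with EAS37 and 2.44 with EAS42, and Il2rb had 1.04 with EAS37 and 1.15 with EAS42. What the prefixes stand for, and so their part in these differences, was not tested.

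**Figure D4:**
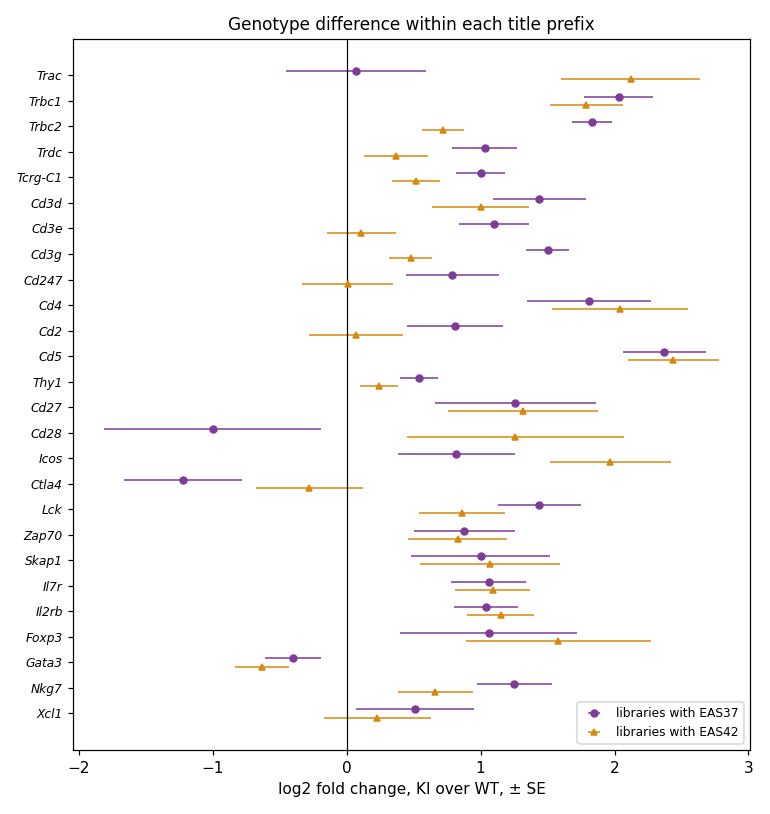
Log2 fold change of KI over WT, with SE bars, among libraries with EAS37 (circles) and with EAS42 (triangles) for the 26 tested genes. Trbc2 is at 1.83 with EAS37 and 0.72 with EAS42, Cd5 and Il7r nearly coincide, and Trac and Cd28 lie to the right with EAS42.

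Other genes of the same pathways were read from lists chosen with earlier results of these data known, and they carry no set test. Of 23 tested genes of receptor signalling, 8 were higher and 3 lower in KI skin, against 15.6% higher and 15.3% lower among all tested genes, with a median log2 fold change of 0.42, against -0.01 over all tested genes. Vav1, an exchange factor below the receptor, averaged 7.03 ± 1.26 CPM in KI skin and 3.46 ± 0.768 CPM in WT skin (SD, n = 5 each; adjusted p = 0.00436, edgeR). Lcp2, the adaptor SLP-76, averaged 6.18 ± 1.23 CPM in KI skin and 2.82 ± 0.924 CPM in WT skin (SD, n = 5 each; adjusted p = 0.00844, edgeR). Fyn, a kinase also used outside T cells, fell to 26.7 ± 1.62 CPM in KI skin, against 42.3 ± 4.16 CPM in WT skin (SD, n = 5 each; adjusted p = 0.000535, edgeR).

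Among all tested genes 15.6% were higher and 15.3% lower, the shares beside which the following counts stand. Chemokines that attract T cells were higher in 6 of 10 tested cases and lower in 0, with a median log2 fold change of 1.03. Ccl20, the ligand of CCR6, averaged 6.42 ± 2.0 CPM in KI skin and 0.365 ± 0.268 CPM in WT skin (SD, n = 5 each; adjusted p = 0.000667, edgeR). Ccl1, the ligand of CCR8, averaged 1.15 ± 0.294 CPM in KI skin and 0.151 ± 0.0595 CPM in WT skin (SD, n = 5 each; adjusted p = 0.000429, edgeR). No WT library exceeded 0.233 CPM of Ccl1, so it passed the filter of 0.454 CPM through KI libraries alone. Cxcl16, the ligand of CXCR6, averaged 92.5 ± 12.2 CPM in KI skin and 34.7 ± 6.10 CPM in WT skin (SD, n = 5 each; adjusted p = 0.000187, edgeR). Homing and residence genes were higher in 6 of 14 cases and lower in 4. Itgal, an integrin chain of leukocytes, had a log2 fold change of 1.11 (adjusted p = 0.00284, edgeR), whereas S1pr1, the receptor for exit from tissue that endothelium also expresses, had -0.86 (adjusted p = 0.00111, edgeR). Klf2, a factor that drives S1pr1 in T cells and is also made by endothelium, had -0.93 (adjusted p = 0.0066, edgeR). Endothelial markers were lower in 5 of 9 cases and higher in 0, summed to 130 to 173 CPM in KI libraries and 196 to 269 CPM in WT libraries, none at 0 in all libraries. Their part in the fall of S1pr1 and Klf2 was not tested.

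Beside the same shares of 15.6% higher and 15.3% lower among all tested genes, costimulation and checkpoint genes were higher in 5 of 12 cases and lower in 0, with a log2 fold change of 1.73 for Tnfrsf9 (4-1BB; adjusted p = 0.00135, edgeR) and 1.54 for Havcr2 (TIM-3; adjusted p = 0.00345, edgeR). Regulatory T cell genes other than Foxp3 were lower in 1 of 8 cases and higher in 3, namely the integrin gene Itgb8 with 0.92 (adjusted p = 0.00435, edgeR), Tnfrsf18 (GITR) with 0.73 (adjusted p = 0.00712, edgeR) and the growth factor gene Areg with 1.66 (adjusted p = 0.0272, edgeR). The lower gene was Ikzf4 with -0.70 (adjusted p = 0.0368, edgeR), and 4 did not pass. In KI skin Itgb8 averaged 54.8 CPM, Tnfrsf18 40 CPM and Areg 7.05 CPM, against 1.27 CPM for Foxp3. Which cells these transcripts came from was not tested. Of the genes for common gamma chain cytokines and receptors, 5 of 8 were higher. Il21r, the receptor for interleukin 21, averaged 0.738 ± 0.154 CPM in KI skin and 0.0678 ± 0.0773 CPM in WT skin (SD, n = 5 each; adjusted p = 0.00316, edgeR). No WT library exceeded 0.177 CPM of Il21r, so it passed the filter of 0.454 CPM through KI libraries alone. Also higher was Il2rg, the shared chain that pairs with Il2rb and Il7r, with 14.8 ± 2.15 CPM in KI skin and 7.52 ± 2.45 CPM in WT skin (SD, n = 5 each; adjusted p = 0.00586, edgeR). T cell transcription factors were higher in 1 of 13 cases (Bcl11b, log2 fold change 0.67, adjusted p = 0.00279, edgeR) and lower in 3, among them Lef1 with -1.63 (adjusted p = 0.00495, edgeR) and Satb1 with -0.89 (adjusted p = 0.0118, edgeR), all of which skin epithelium also expresses.

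NK and cytotoxic genes outside the 31 were higher in 4 of 7 tested cases and lower in 0, against 15.6% higher and 15.3% lower among all tested genes, with a median log2 fold change of 0.98. Gzmc, another granzyme, averaged 5.23 ± 1.36 CPM in KI skin and 1.05 ± 0.688 CPM in WT skin (SD, n = 5 each; adjusted p = 0.00277, edgeR). Ctsw, the protease cathepsin W of cytotoxic lymphocytes, averaged 6.19 ± 1.62 CPM in KI skin and 2.62 ± 0.942 CPM in WT skin (SD, n = 5 each; adjusted p = 0.00728, edgeR). Klrd1, the receptor chain CD94, averaged 2.03 ± 0.755 CPM in KI skin and 0.918 ± 0.354 CPM in WT skin (SD, n = 5 each; adjusted p = 0.0242, edgeR). Prf1, the gene of perforin, had a log2 fold change of 0.21 ± 0.45 (SE; adjusted p = 0.75, edgeR). Ncr1, a defining NK cell receptor, had 19 counts in KI and 5 counts in WT libraries and was below the filter. Ifng had 2 counts in KI and 8 counts in WT libraries.

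Genes tied to gamma-delta T cells were higher in 2 of 13 tested cases and lower in 2, shares close to the 15.6% higher and 15.3% lower among all tested genes. Klrb1b, a lectin-like receptor, had a log2 fold change of 1.01 (adjusted p = 0.0163, edgeR), and Sox13, a factor of gamma-delta T cells, had -0.80 (adjusted p = 0.00468, edgeR). Sox13 averaged 22.6 CPM in KI skin and 39.4 CPM in WT skin, against 9.49 and 5.62 CPM for Trdc, and its cell source was not tested. The receptor genes Trdv4 with 0.93, Tcrg-C2 with 0.75 and Tcrg-C4 with 0.64 did not pass (adjusted p = 0.0623, 0.0791 and 0.196, edgeR). Effector cytokines of type 17 cells were at or near 0, with 0 counts of Il17a and Il22 in all 10 libraries and 3 counts of Il17f in KI and 7 counts in WT libraries. Skint1, an epidermal protein required for selection of epidermal gamma-delta T cells in the thymus, averaged 16 ± 3.72 CPM in KI skin and 6.46 ± 2.0 CPM in WT skin (SD, n = 5 each; adjusted p = 0.00341, edgeR). Of its family of 11 tested genes, 2 were higher and 0 lower. Skint genes are similar copies, so their levels are uncertain.

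Markers of other cell types were read in the same way, beside 15.6% higher and 15.3% lower among all tested genes. Macrophage and dendritic cell genes were higher in 5 of 19 cases and lower in 1, and summed to 567 to 918 CPM in KI libraries and 418 to 654 CPM in WT libraries, none at 0 in all libraries. Of the 10 neutrophil genes 5 were tested, and these 5 were higher. The 10 summed to 77.6 to 162 CPM in KI libraries and 7.83 to 10.7 CPM in WT libraries. In KI skin Mmp9 averaged 55.4 CPM, S100a8 30.6 CPM and S100a9 23.1 CPM, and their cell source was not tested. Cxcr2 reached at most 0.177 CPM in WT libraries and passed the filter through KI libraries alone. Below the filter were Mmp8 (30 counts in KI and 3 counts in WT libraries), Retnlg (13 and 5), Elane (3 and 3) and Camp (7 and 21). The defining marker Ly6g was at 0 in all libraries. Of the mast cell genes 0 of 7 passed, and B and plasma cell genes were lower in 2 of 3 tested cases. Fibroblast genes were lower in 4 of 10 cases and higher in 0, and keratinocyte genes higher in 3 of 10 and lower in 1. Genes of type 2 innate lymphoid cells, which share Gata3, Il7r and Thy1 with T cells, were higher in 1 of 6 cases and lower in 0, and Nmur1 was at 0 in all libraries. Cd3e relative to Ptprc on the log2 TPM scale averaged -0.72 ± 0.22 in KI libraries and -0.23 ± 0.71 in WT libraries (SD, n = 5 each; exact permutation p = 0.246). With the level of the leukocyte markers in the model, Trbc1 and Cd5 were the 2 of 26 genes that were called higher, against 0.918% of all tested genes. With the skeletal muscle level in the model, 4 of 26 were called higher (Trbc1, Cd3d, Cd5 and Il2rb), against 1.74% of all tested genes. The median log2 fold change of the 26 genes was 0.90 with the leukocyte level and 1.11 with the muscle level, against 1.05 without either. Single folds moved both ways with the leukocyte level. Cd3d had 1.88 (adjusted p = 0.0642, edgeR) and Lck 1.46 (adjusted p = 0.143, edgeR). Cd4 had 1.16 (adjusted p = 0.286, edgeR), Trdc 0.303 (adjusted p = 0.807, edgeR) and Thy1 0.0189 (adjusted p = 0.976, edgeR). The mean log2 CPM of the leukocyte markers was 3.69 to 4.21 in KI libraries and 2.77 to 3.55 in WT libraries. These ranges do not overlap, so the fit can hardly tell this level and the genotype apart. The mean log2 CPM of the muscle markers was 6.87 to 10.16 in KI libraries and 10.08 to 10.74 in WT libraries, and these ranges overlap. The part of both levels in the other genes' differences was not tested.

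**Figure D5:**
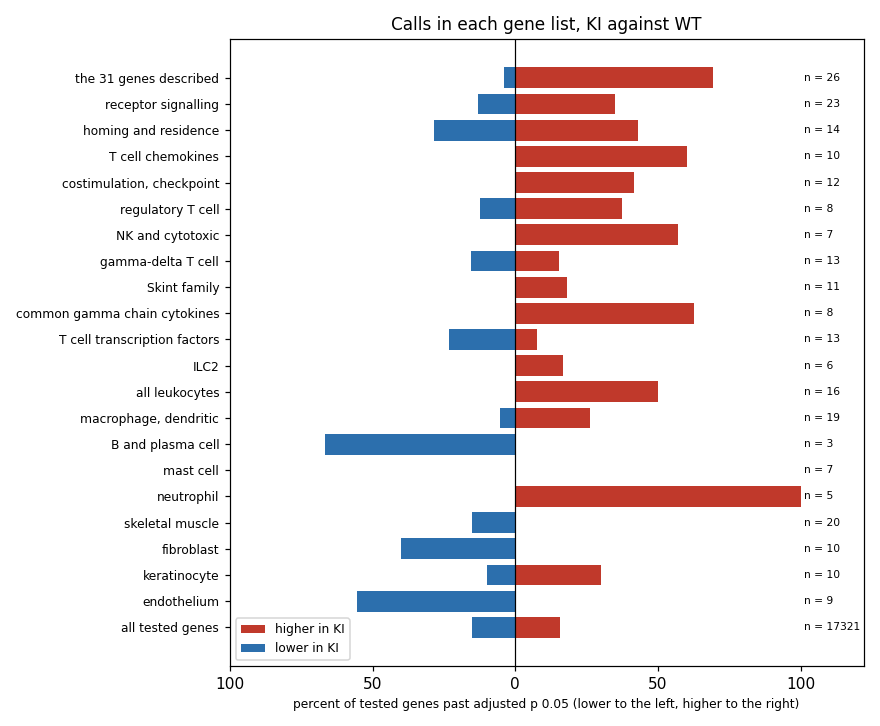
Percent of tested genes in each list that were higher (right) or lower (left) in KI skin at adjusted p under 0.05, with the number tested at the right edge. The 31 genes described have 18 higher and 1 lower of 26 tested, against 15.6% higher and 15.3% lower among all tested genes at the bottom.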

How the data were processed

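Skin RNA was extracted with trizol and turned into Illumina stranded mRNA libraries, per the labels' protocols. Per the submitters' processing notes, which give no role or order, GRCm38, STAR 2.5.2b and DESeq2 1.14.1 were among the builds and tools. Expected counts, TPM and FPKM per gene were deposited by the authors, per the file headers those of RSEM tables. For RSEM, its version, annotation and strand setting were not given in the sources used here. FPKM, also deposited, were left aside.

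Expected counts (10.4% to 12.2% fractional) were rounded. Genes were named from GENCODE M21 (55141 of 55487). edgeR 4.0.16 (R 4.3.3) was run with filterByExpr (minimum count 10, minimum total 15), TMM, a robust quasi-likelihood fit and Benjamini-Hochberg adjustment over 17321 genes, threshold 0.05. CPM values use TMM library sizes. Gene intervals are those of the quasi-likelihood test at 95%. Ratio tests and binomial intervals used scipy 1.17.1 and Python 3.11.15, and figures matplotlib 3.10.9. On simulated data the fit recovered 23.9% of 1.5-fold, 64.2% of 2-fold and 87.9% of 4-fold changes, and 7.14% of its calls were false. All pairs of libraries differed beyond sampling noise (lowest chi-square per gene 29.5). Intervals on counts and floors cover counting error only.

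The 31 genes and the 20 lists of other genes (287 entries) were chosen with earlier results of these data known. All 31 genes are described. List genes named are among the 3 with the smallest p of their list, not all 3 in every list, or are Il17a, Il17f, Il22, Ncr1, Prf1, Ifng, Ptprc, Tcrg-V5, Trdv4, Skint1, Hamp and Hamp2. Chosen outside this rule after values were seen were Ly6g, Nmur1, Ikzf4, Cxcr2, Mmp8, Retnlg, Elane, Camp, Tcrg-C2 and Tcrg-C4. Alternatives were other normalizations, filters, effective length offsets, the title prefix as a block or alone, muscle or leukocyte level as a covariate, each library left out, DESeq2 1.42.0 and limma-voom (limma 3.58.1). Replicate numbers follow accession order and pair nothing.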

Additional observations from a re-analysis of the deposited data

Results flagged for a closer look

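Within each group of 5 libraries the gap of the outermost library was set against the group's range for the 26 tested genes, 52 groups in all. A library stood apart in 2 of these, where chance gives about 1 in 20 groups. Cd4 in WT replicate 3 was at 0.973 CPM, above the other WT libraries at 0.417 to 0.550 CPM. Ctla4 in WT replicate 2 was at 1.91 CPM, below the other WT libraries at 2.91 to 3.03 CPM. The effect of KI on Trbc2 differed between the title prefixes, by -1.11 on the log2 scale (adjusted p = 0.0488, edgeR), with both effects upward and all KI libraries above all WT libraries.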

How the results depend on the processing

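Trbc1 and Cd5 kept their call under all 22 alternatives run, and Il2rb lost it with the leukocyte level. The count of higher genes among the 26 was 18 with DESeq2 size factors, the upper quartile, the prefix block and limma-voom. In these fits 15.5% to 18.9% of all tested genes were higher. It was 19 with DESeq2, against 18.3% of all tested genes, and 12 with effective length offsets, against 13.9%. The offsets ended the calls of Trac, Cd3d, Thy1, Cd27, Foxp3 and Nkg7. It was 17 of 31 with no filter, against 7.44% of all tested genes. With a minimum count of 50, where fewer genes were tested, it was 11 of 16, against 17.7%. It was 13 with EAS37 alone, against 15% of all tested genes, and 10 of 28 with EAS42 alone, against 6.68%, where fewer libraries enter. With the muscle level it was 4, against 1.74%, and with the leukocyte level 2, against 0.918%. The median log2 fold change of the 26 was 1.11 with the muscle level and 0.90 with the leukocyte level, against 1.05 without either. The prefix block ended the call of Trac and brought in Trdc, and changed no other call among the 26. Genes lower numbered 0 with EAS37 alone, EAS42 alone, the muscle level and the leukocyte level. Leaving out each library gave 12 to 17 higher genes and 0 to 2 lower genes, with 12 without WT replicate 1. Of all tested genes 11% to 17.3% were higher in these fits. Trac passed in 2 of 10, Foxp3 in 2 and Gata3 in 2 of these, with adjusted p (edgeR) up to 0.0901, 0.103 and 0.0938. Over all genes, leaving out each library gave 1936 to 3038 higher and 1799 to 2812 lower. EAS42 alone gave 1192 higher and 1296 lower, the muscle level 302 and 147, and the leukocyte level 159 and 247.

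Signs changed for genes that had not passed. Cd247 was at -0.0013 with EAS42 alone, Cd2 at -0.215 and Xcl1 at -0.142 with the leukocyte level. Cd28 was at -0.982 with EAS37 alone, -0.316 with the leukocyte level, -0.0845 without KI replicate 4, -0.124 without WT replicate 1 and -0.179 without WT replicate 4, in a range of -0.179 to 0.563 over the libraries left out. Among the log2 ratios, 0.01 TPM moved 4 past the threshold: gamma to beta (-0.565, exact permutation adjusted p = 0.0423), Trbc1 to Trbc2 (0.655, adjusted p = 0.0476), Cd8a to Cd4 (2.65) and Gzmb to Cd3e (3.54; both adjusted p = 0.0423). With 1 TPM, Cd8a to Cd4 was -0.273 and Gzmb to Cd3e -0.0473. With EAS37 alone Trdc to Trac was 1.01, Trbc1 to Trbc2 0.172, Cd8a to Cd4 -0.465, Gzmb to Cd3e -0.131 and Cd3e to Ptprc 0.0578. With EAS42 alone Trdc to Trac was -1.55, Trbc1 to Trbc2 1.04, Gzmb to Cd3e 2.51 and Cd3e to Ptprc -1.25. Leaving out each library gave -0.528 to 0.0113 for Trdc to Trac and -0.236 to 0.475 for Cd8a to Cd4. Trdc to Trac was 0.00451 without WT replicate 4, and Cd8a to Cd4 -0.236 without KI replicate 5. The cause of these changes was not tested. No paired analysis was possible because the labels give no replicate numbers shared between the groups.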
